A study of Mus musculus with 18 samples.

Results

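The collagens and a set of other genes of the extracellular matrix were followed through the reprogramming of mouse embryonic fibroblasts (MEFs), in 18 RNA-seq libraries that fall into 9 groups of 2. Members were all genes named as a collagen chain, with 1 collagen gene left out, together with 15 genes for elastic fibres, proteoglycans and matricellular proteins (Fbn1, Fbn2, Eln, Fbln1, Fbln2, Fbln5, Bgn, Dcn, Lum, Vcan, Postn, Tnc, Sparc, Thbs1 and Thbs2). These names cover 58 mouse genes, of which 40 were present in at least 1 of the expression tables, 26 of them collagens. The knockdown (KD) table held 39 of these genes among 9435, the overexpression (OE) table held 36 among 9472, and 35 were in both. The 18 genes in neither table were Eln and 17 collagens, among them the type IX chains of cartilage (Col9a1, Col9a2 and Col9a3) and Col4a3 and Col4a4. The splicing table held 4131 covered events of member genes among 491623.

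Every group consisted of MEFs of the genotype Collagen-OKSM, M2rtta+. In this strain doxycycline turns on a cassette with the reprogramming factors Oct4, Klf4, Sox2 and c-Myc, and the cassette sits in the Col1a1 locus, so the locus of a member gene carries the transgene in every group. In the KD dataset, non-infected cells at day 0 (NI) were set beside 5 groups at day 12 of doxycycline that had received lentiviral shRNAs, namely the scrambled control shSCR, shCPSF3#1 and shCPSF3#2 against the cleavage and polyadenylation nuclease Cpsf3, and shUL1#1 and shUL1#2 against the RNA-binding protein Hnrnpul1. The OE dataset had its own NI group at day 0 and 2 retroviral groups at day 12, Empty (vector alone) and T7-TIA1 (tagged Tia1, an RNA-binding protein). The day of each group was taken from the sample titles, because another label field gives day 0 for shUL1#2 and day 12 for the NI group of the OE dataset. Nothing states that the replicates came from separate cultures or animals, so the p-values measure the spread between these libraries, which may be technical.

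Fibroblasts are the main makers of collagen in connective tissue. Fibrillar collagens (types I, II, III, V, XI, XXIV and XXVII) form the fibres that bear load, type IV collagen forms the network of basement membranes, type VI forms beaded filaments around cells, and fibril-associated collagens such as types XII and XVI decorate the fibres. The central part of a fibrillar chain repeats a triplet that begins with glycine, and its exons are mostly whole numbers of such triplets. During reprogramming to pluripotency, fibroblasts pass through a mesenchymal-to-epithelial transition in which fibroblast genes are shut down.

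The triplet code is visible in the gene models. In the mouse annotation (mm10, GENCODE M21), 828 of 1315 coding exons of the 26 collagen members (62.97%) had a length divisible by 9, the length of 1 triplet, compared with 14.17% of 242307 coding exons of all genes and 26.46% of 325 coding exons of the 14 other members. Exons of 54 nt accounted for 321 of the collagen exons and exons of 45 nt for 107. The alternative exons on which the splicing results below turn are shown here, 5′ to 3′ on the coding strand, because they differ in this respect. Capitals mark glycine codons in the frame of the annotated transcript, in the collagen exons only.
Col16a1, 48 nt, chr4:130073069-130073116, plus strand: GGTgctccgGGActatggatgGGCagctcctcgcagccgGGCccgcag
Col16a1, 45 nt, chr4:130081435-130081479, plus strand: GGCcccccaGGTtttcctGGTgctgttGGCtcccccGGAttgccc
Fbln2, 141 nt, chr6:91259630-91259770, plus strand: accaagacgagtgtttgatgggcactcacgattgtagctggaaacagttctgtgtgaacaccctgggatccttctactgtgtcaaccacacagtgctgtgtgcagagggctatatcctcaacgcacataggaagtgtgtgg
Postn, 81 nt, chr3:54380412-54380492, plus strand: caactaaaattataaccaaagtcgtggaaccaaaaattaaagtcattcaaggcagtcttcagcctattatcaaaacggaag
Postn, 78 nt, chr3:54385208-54385285, plus strand: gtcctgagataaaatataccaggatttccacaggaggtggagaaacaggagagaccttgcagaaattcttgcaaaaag
Tnc, 273 nt, chr4:63982651-63982923, minus strand: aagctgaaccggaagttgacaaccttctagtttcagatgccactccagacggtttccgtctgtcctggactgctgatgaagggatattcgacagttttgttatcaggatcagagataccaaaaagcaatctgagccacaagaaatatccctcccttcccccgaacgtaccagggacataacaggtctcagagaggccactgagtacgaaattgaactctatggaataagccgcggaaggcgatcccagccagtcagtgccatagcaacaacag
The 45-nt exon of Col16a1 kept the repeat, with glycine at codons 1, 4, 7, 10 and 13 of 15. The 48-nt exon of the same gene broke it, with glycine at codons 1, 4, 8 and 14 of 16. All 6 exons lie wholly in coding sequence.

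Expression values were CPM (counts scaled to a library of fixed size) relative to a library size that the authors scaled for each library, called scaled CPM here, so a value is a share of the library and not an amount per cell. Fewer fibroblasts and less matrix RNA per fibroblast therefore cannot be told apart. Day-12 cells had also been grown and harvested with irradiated feeder cells, whose share of the matrix RNA cannot be told apart either. Members made up 4.42% and 4.71% of the listed signal in the 2 NI libraries of the KD dataset, 3.58% and 1.96% in shSCR, 3.44% to 6.26% in the 8 knockdown libraries, 1.73% and 2.06% in Empty and 1.38% and 1.57% in T7-TIA1. The NI libraries of the OE dataset stood apart from each other, at 4.76% and 8.20%. In the latter, replicate 2, 30 of 36 members were higher than in replicate 1, and 19 of 36 (52.78%) differed over 2-fold between the replicates compared with 5.44% of all listed genes.

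**Figure D1:**
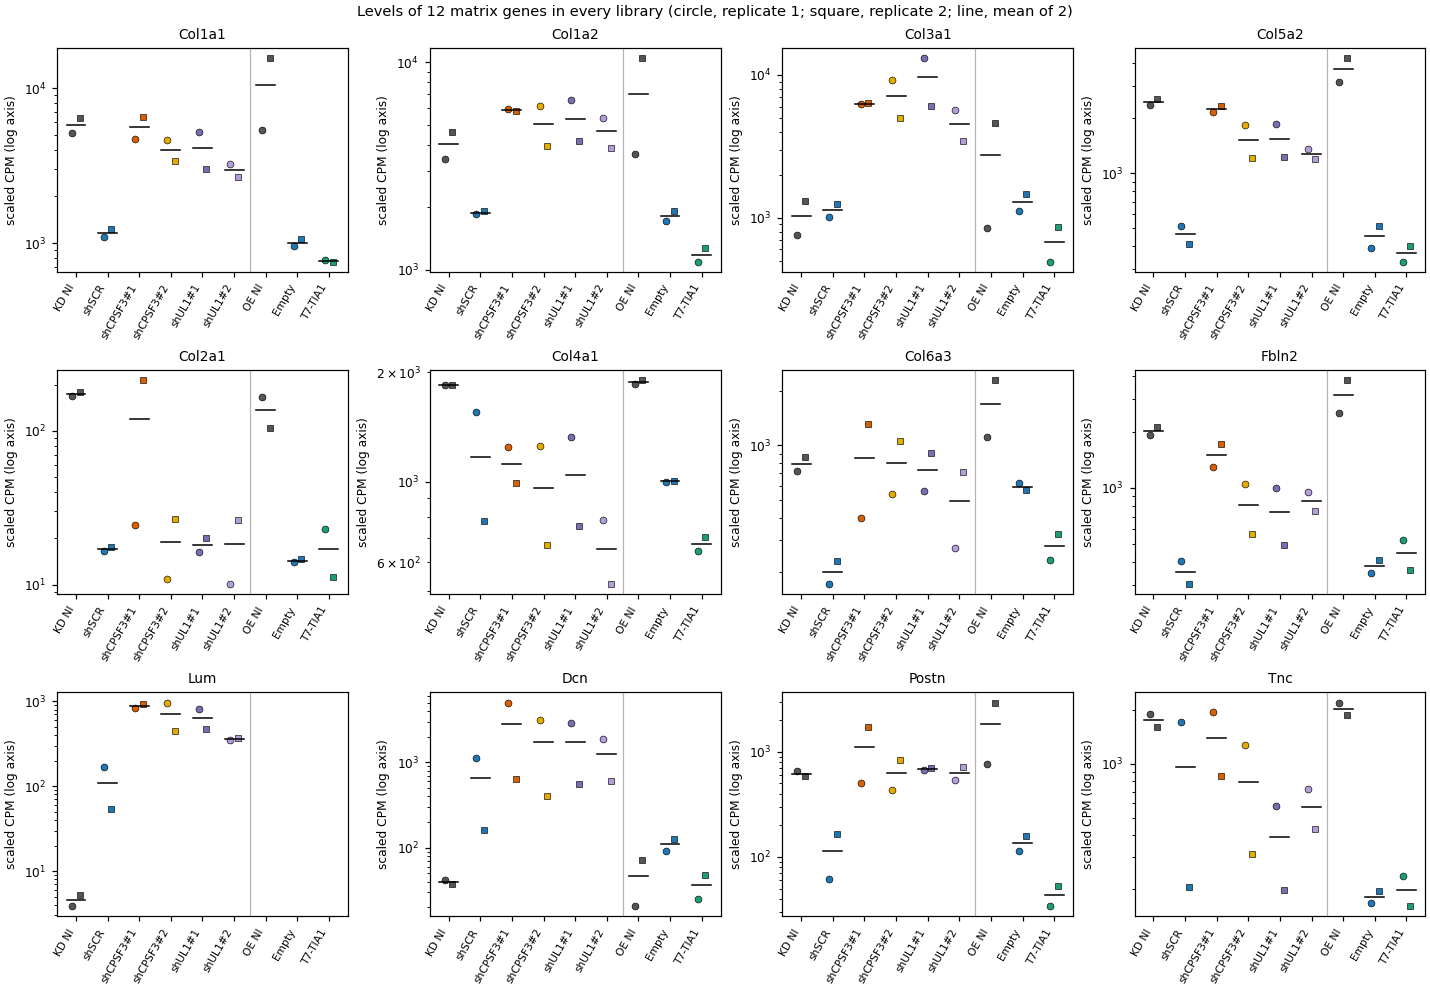
Level of the matrix genes in every library (log scale, scaled CPM), with circles for replicate 1 and squares for replicate 2. Col1a1 and Fbln2 sit lower in shSCR and Empty than in NI and higher again in the knockdowns, whereas Lum is near 4 to 5 in NI and above 54 in every day-12 library of the KD dataset.

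The replicates of the day-12 KD groups also differed more for matrix genes than for other genes. Between 8 and 16 of 39 members differed over 2-fold within a day-12 group, compared with 3.61% to 8.31% of all genes. Dcn, a small proteoglycan that binds collagen fibrils, was 3.13 to 7.74-fold higher in replicate 1 in all 5 day-12 groups, and Thbs2, a matricellular regulator of collagen fibres, 3.13 to 6.81-fold. In all, 12 members were higher in replicate 1 in every day-12 KD group (30.77%, all genes 25.5%) and 6 in replicate 2, among them Postn, Col6a3 and Col2a1 (15.38%, all genes 30.58%). These spreads enter the tests below.

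The knockdown and overexpression were visible in the targeted genes. Cpsf3 was at 86.7 and 118 scaled CPM in shSCR and 38.6, 49.99, 42.4 and 77.1 in the shCPSF3 libraries, Hnrnpul1 at 156 and 185 in shSCR and 55.7, 85.8, 38.7 and 63.7 in the shUL1 libraries, and Tia1 at 613 and 469 in T7-TIA1 compared with 85.6 and 77.04 in Empty. Summed fibroblast markers (9 of 12 listed) ran from 5945 to 6313 in NI, 2188 to 3407 in shSCR and 3091 to 5191 in the knockdowns. Vim made up most of the sum in NI, at 4593 and 4625, and was at 1282 and 1351 in shSCR. By the test given below, 3 of the 9 markers fell in shSCR (33.33%, all genes 22%) and none rose. Their median difference was -0.32 on the log2 scale. Summed epithelial markers (4 of 12 listed) ran from 51.2 to 64.3 in NI, 413 to 695 in shSCR and 55.8 to 314 in the knockdowns. Macrophage markers (3 of 6 listed) ran from 9.57 to 10.6 in NI, 171 to 300 in shSCR and 259 to 1814 in the knockdowns. The 1 endothelial marker listed of 6 ran from 1.15 to 1.51 in NI, 25.0 to 29.7 in shSCR and 18.3 to 143 in the knockdowns, and 2 chondrocyte markers of 6, Sox9 and Comp, summed to 9.95 to 19.0 in NI and shSCR and 29.6 to 103 in the knockdowns. In the OE dataset the fibroblast markers summed to 6204 to 7349 in NI, 2818 to 2888 in Empty and 2970 to 3193 in T7-TIA1. Vim made up most of that sum, at 1976 and 1967 in Empty and 2533 and 2267 in T7-TIA1, whereas 6 of the 9 markers had negative differences, among them Pdgfra, at 90.5 and 105 in Empty and 25.8 and 48.4 in T7-TIA1. No marker of pluripotent cells from a list of 12 was in either table. The part of these cell types in the matrix results was not tested.

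To see what happened to the matrix genes during reprogramming itself, shSCR at day 12 was compared with NI at day 0. Most of the fibre-forming collagens fell, while the proteoglycan Lum and 2 non-fibrillar collagens rose. Of 39 members, 18 fell (46.15%, compared with 22% of all genes), 3 rose (7.69%, all genes 22.5%) and 18 did not pass the test (limma on log2(scaled CPM + 1), Benjamini-Hochberg adjusted p under 0.05 over all listed genes). The median difference on the log2 scale was -1.09 over the members and 0.0005 over all genes. The OE dataset gave its own version of this comparison, Empty against its NI libraries. There 25 of 36 members fell (69.44%, all genes 23.6%), 3 rose (8.33%, all genes 22.8%) and 8 did not pass, with a median of -1.55 over the members and 0.01 over all genes.

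Of the 10 fibrillar collagens listed in each table, 7 fell in shSCR and 8 in Empty, and none rose. Col1a1, the α1 chain of type I collagen, was at 5158 and 6395 scaled CPM in NI and 1099 and 1228 in shSCR, a difference on the log2 scale of -2.30 (SE 0.31, limma adjusted p = 0.000811). In the other dataset it was at 5340 and 15607 in NI and 955 and 1064 in Empty (-3.18, SE 0.48, limma adjusted p = 0.00496). All day-12 control libraries lay below all NI libraries.

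Col1a2, the α2 chain that pairs with it, also fell in both datasets. It went from 3438 and 4640 in NI to 1849 and 1912 in shSCR, a 2.12-fold difference (limma adjusted p = 0.0254), and from 3627 and 10475 to 1718 and 1921 in Empty (limma adjusted p = 0.0301). The ratio of Col1a1 to Col1a2 per kilobase of exon was 2.84 and 2.61 in NI of the KD dataset and 2.79 and 2.82 in NI of the OE dataset. It was 1.13 and 1.22 in shSCR and 1.05 and 1.05 in Empty. The ratio was alike in all 4 NI libraries, although their levels of Col1a1 ran from 5158 to 15607, and no day-12 control library came near it. This ratio was not tested, and its size depends on the annotated exon lengths.

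The type V chains, which set the diameter of type I fibres, fell with them. Col5a2 was at 2375 and 2562 in NI and 516 and 412 in shSCR, 5.34-fold lower (limma adjusted p = 0.000287), and 8.18-fold lower in Empty. Col5a1 was 4.89-fold lower in shSCR and 7.22-fold lower in Empty, and Col5a3 was 3.21-fold and 4.00-fold lower. Col2a1, the cartilage fibrillar collagen, had the largest fall of any member in the KD dataset, from 170 and 180 in NI to 16.6 and 17.7 in shSCR (-3.28, SE 0.90, limma adjusted p = 0.0186), and was at 167 and 105 in NI and 13.9 and 14.6 in Empty.

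Col3a1, the type III chain of soft connective tissue, did not pass in either dataset. It was at 758 and 1309 in NI and 1021 and 1251 in shSCR, which overlap (0.18, SE 0.47, limma adjusted p = 0.78). In the OE dataset it was at 843 and 4620 in NI and 1112 and 1462 in Empty, again with overlap. Its difference in Empty went from -0.63 to -1.86 and passed without OE NI replicate 1 (limma adjusted p = 0.00461). Col24a1, a minor fibrillar collagen, was at 4.67 and 6.48 in NI and 63.3 and 16.3 in shSCR, with no overlap. This difference of 2.36 did not pass (SE 0.89, limma adjusted p = 0.062), but passed without shSCR replicate 2 (3.30, limma adjusted p = 0.0399), with libraries rescaled to equal totals (limma adjusted p = 0.0454) and with only the groups compared (limma adjusted p = 0.041). Its libraries overlapped in the OE dataset, at 6.39 and 20.9 in NI and 17.4 and 21.7 in Empty, where the difference of 0.69 did not pass but that of 1.47 without OE NI replicate 2 did. Per kilobase of exon, Col3a1 was at 0.0983 and 0.137 of the level of Col1a1 in NI and at 0.621 and 0.681 in shSCR. The same ratio was 0.106 and 0.198 in NI of the OE dataset and 0.778 and 0.919 in Empty. All 4 day-12 control libraries lay above all 4 NI libraries in this ratio.

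Among network collagens, 3 of 7 fell in shSCR and 4 of 5 in Empty. The basement membrane chains Col4a1 and Col4a2, which are transcribed from a shared promoter, did not pass the test in shSCR, where replicates 1 and 2 were at 1559 and 780 for Col4a1 against 1849 and 1842 in NI. In Empty both fell, Col4a1 from 1856 and 1900 to 1000.1 and 1000.3 (-0.91, SE 0.12, limma adjusted p = 0.0033) and Col4a2 by 0.81 on the log2 scale. Col8a1, a short-chain collagen of vessel and corneal matrix, fell from 555 and 522 to 146 and 158 in shSCR (limma adjusted p = 0.000571) and from 438 and 389 to 158 and 227 in Empty. Col10a1, the short-chain collagen of hypertrophic cartilage, rose in Empty from 6.78 and 12.5 to 46.0 and 46.7 (2.21, SE 0.33, limma adjusted p = 0.00494), but in the KD dataset its shSCR libraries, at 3.27 and 27.9, lay on both sides of NI at 10.6 and 15.1.

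Of the type VI chains, Col6a3 fell from 720 and 858 to 172 and 231 in shSCR (-1.97, SE 0.64, limma adjusted p = 0.0374) and by 1.43 on the log2 scale in Empty. Col6a1, at 377 and 662 in NI and 473 and 376 in shSCR, and Col6a2 did not pass in either dataset, but without OE NI replicate 1, the lower of the NI libraries, they were at -2.01 and -2.23 in Empty and passed. Col6a2 also passed without OE NI replicate 2, at -0.34. Col7a1, which makes the anchoring fibrils under epithelia, was at 201 and 176 in NI, 89.2 and 20.9 in shSCR, 320 and 208 in NI of the OE dataset and 23.8 and 17.3 in Empty. It had the largest fall of any member in Empty (-3.60, SE 0.30, limma adjusted p = 0.00127). Both fibril-associated collagens, Col12a1 and Col16a1, fell in both datasets, Col12a1 from 1763 and 1716 to 959 and 348 in shSCR and from 1382 and 3038 to 263 and 407 in Empty.

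The 2 listed multiplexin and transmembrane collagens of each table rose. Col18a1, the basement membrane collagen whose fragment is endostatin, was at 70.6 and 70.0 in NI and 337 and 313 in shSCR (2.19, SE 0.44, limma adjusted p = 0.00492), and at 73.7 and 105 in NI and 393 and 294 in Empty (1.93, SE 0.22, limma adjusted p = 0.00231). Col23a1, a transmembrane collagen listed in the KD table alone, went from 1.53 and 1.30 to 7.995 and 6.24 (1.74, limma adjusted p = 0.00289). Col15a1, listed in the OE table alone, went from 7.05 and 16.9 to 31.3 and 26.7 (limma adjusted p = 0.0319).

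Among elastic fibre genes, Fbln2 and Fbln5 fell in both datasets, and Fbn1, the main fibrillin of microfibrils, fell in Empty from 706 and 2350 to 289 and 429. In the KD dataset Fbn1 was at 678 and 839 in NI and 485 and 248 in shSCR without passing (limma adjusted p = 0.114). Fbln2, a fibulin of basement membranes and elastic fibres, went from 1926 and 2126 to 401 and 304 in shSCR (5.78-fold lower, limma adjusted p = 0.00151) and from 2525 and 3796 to 348 and 409 in Empty (8.18-fold lower). Fbln1 had values above NI in both shSCR libraries, 217 and 92.7 compared with 46.0 and 54.2, but did not pass the test (limma adjusted p = 0.133).

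The small leucine-rich proteoglycans did not move together. Lum, which spaces collagen fibrils, had the largest rise of any member, from 3.85 and 5.18 in NI to 167 and 54.2 in shSCR (4.14, SE 0.54, limma adjusted p = 0.000673). Dcn was at 42.2 and 37.8 in NI and 1138 and 161 in shSCR, a difference of 3.39 that did not pass (SE 1.45, limma adjusted p = 0.0918). Bgn fell in Empty from 3822 and 5152 to 1006 and 1314, and was at 2865 and 3277 in NI and 1678 and 934 in shSCR without passing (limma adjusted p = 0.0563). Vcan, a large hyaluronan-binding proteoglycan, fell in Empty (limma adjusted p = 0.0317) and did not pass in shSCR (limma adjusted p = 0.0658). With only the groups compared in the fit, Dcn, Bgn and Vcan passed in shSCR (limma adjusted p = 0.0405, 0.0352 and 0.0122), as did Fbln1 and Col27a1 (limma adjusted p = 0.0452 and 0.0324).

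Matricellular genes fell in 2 of 5 cases in shSCR and in 4 of 5 in Empty. Postn, a secreted protein of remodelling connective tissue, was at 652 and 588 in NI and 62.1 and 167 in shSCR (-2.59, SE 0.62, limma adjusted p = 0.0111), and at 759 and 2928 in NI and 114 and 157 in Empty (-3.47, SE 0.63, limma adjusted p = 0.00863). Tnc, an anti-adhesive glycoprotein, went from 2204 and 1870 to 167 and 193 in Empty (-3.49, SE 0.22, limma adjusted p = 0.000894). In the KD dataset, shSCR replicate 1 at 1714 lay within the NI range of 1894 and 1614 and replicate 2 at 203 lay far below it. Sparc, a collagen-binding protein, fell from 2699 and 2999 to 1463 and 1244 in shSCR (limma adjusted p = 0.0108) and from 2769 and 5010 to 1305 and 1396 in Empty (limma adjusted p = 0.0107). Thbs1 was per kilobase the most abundant member in 3 of the 4 NI libraries, the exception being OE NI replicate 2, where Col1a1 was higher. It fell 3.11-fold in Empty (limma adjusted p = 0.00477) and did not pass in shSCR, at 12800 and 5959 against 13915 and 11059. Thbs2 was at 280 and 1041 in NI of the OE dataset and at 416 and 526 in Empty, and the direction of this difference depended on the NI library: it was -0.21 with both (limma adjusted p = 0.793), -1.15 without OE NI replicate 1 (limma adjusted p = 0.00581) and 0.74 without OE NI replicate 2 (limma adjusted p = 0.0279).

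These counts depended on single libraries more than on the scaling. Without NI replicate 1 or NI replicate 2, 11 and 10 of 39 members passed in the KD dataset. Among all genes the shares were 27.7% and 29.1%. For Empty against NI, 33 members passed without OE NI replicate 1 or OE NI replicate 2 (63.1% and 62.8% of all genes), and 13 and 18 without Empty replicate 1 and Empty replicate 2 (15.6% and 23.5% of all genes), so the member counts moved with those of the whole table. Rescaling all libraries to equal totals took the median of all genes from 0.0005 to 0.13 in shSCR and from 0.01 to 0.19 in Empty on the log2 scale. It left 14 members lower and 4 higher in shSCR (1540 and 2447 of all genes, in place of 2075 and 2122) and 23 lower and 3 higher in Empty (1554 and 3143 of all genes, in place of 2237 and 2164). The members' medians became -0.95 and -1.36.

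To ask what loss of Cpsf3 did to the matrix genes, the 4 shCPSF3 libraries were compared with shSCR. Matrix genes were higher in the knockdown: 23 of 39 members rose (58.97%, all genes 16.7%), none fell (all genes 9.35%) and 16 did not pass, with a median of 1.43 over the members and 0.03 over all genes. Among the members that rose were 8 of 10 fibrillar collagens, 3 of 4 beaded filament and anchoring collagens, 3 of 4 proteoglycans, 3 of 5 elastic fibre genes, 2 of 7 network collagens, 2 of 5 matricellular genes and 1 of 2 in each remaining group. The comparison of the 4 shUL1 libraries with the same 2 shSCR libraries gave 17 members higher (43.59%, all genes 7.31%), none lower (all genes 3.15%) and 22 that did not pass, with a median of 1.22 over the members and 0.0042 over all genes. There the fibrillar collagens had 7 of 10 higher, the type VI and VII group 2 of 4, proteoglycans 2 of 4, matricellular genes 2 of 5, elastic fibre genes 1 of 5, network collagens 1 of 7 and each remaining group 1 of 2. Both sets of differences share the shSCR libraries, so they are given side by side and not as separate support for each other.

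**Figure D2:**
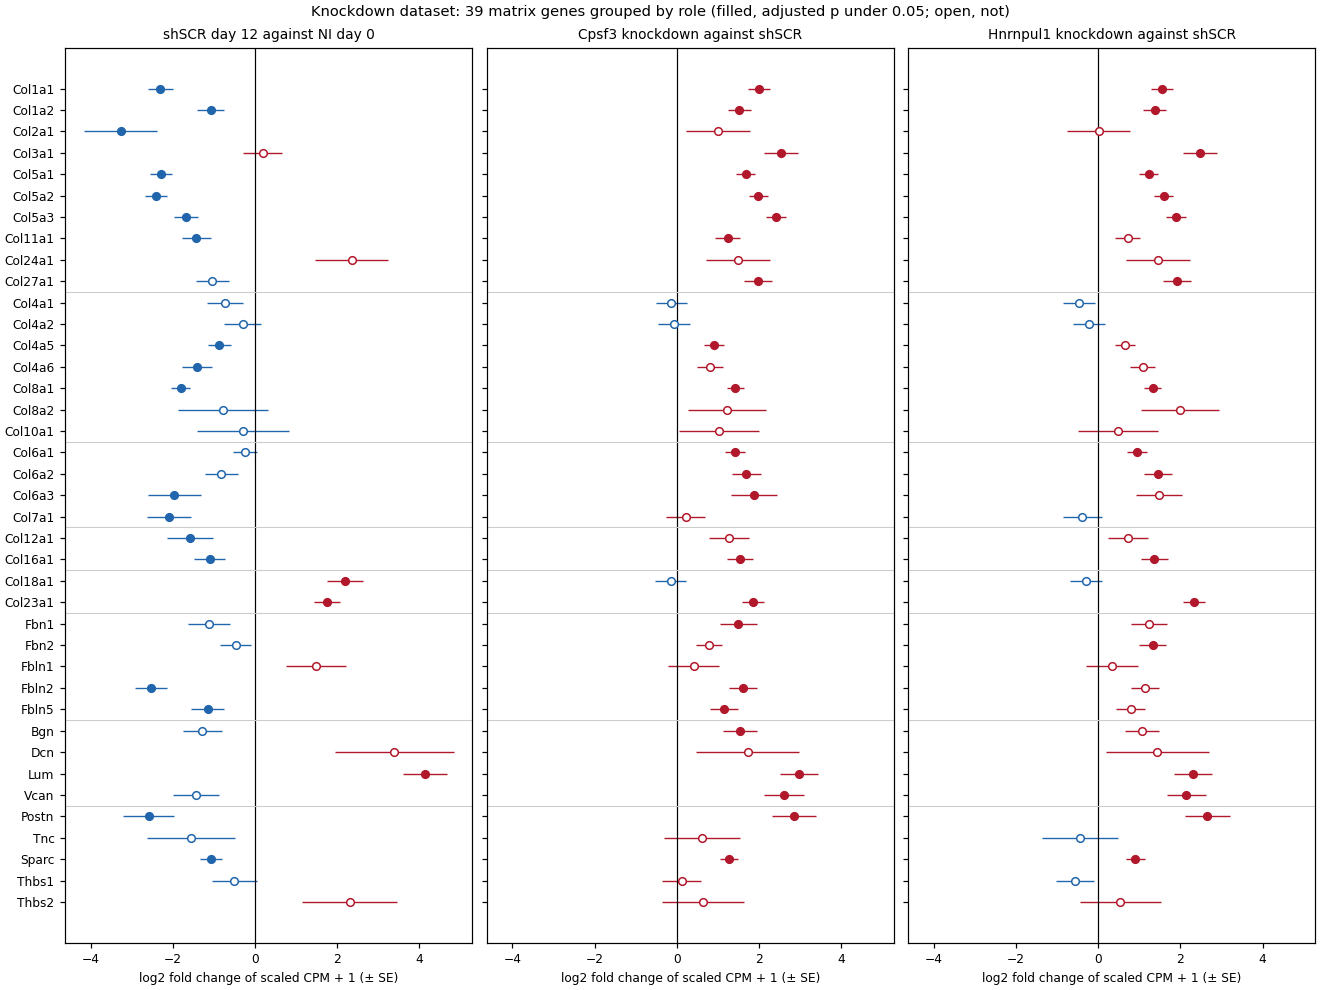
Log2 fold change (± SE) of each of the 39 listed matrix genes in the KD dataset in 3 comparisons, grouped by role from fibrillar collagens at the top to matricellular genes at the bottom; filled points passed the test. The 18 falls in shSCR against NI sit on the left, and the 23 and 17 rises in the knockdowns on the right with no filled point below 0.

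Col1a1, at 5158 and 6395 in NI, was at 4697, 6528, 4603 and 3400 in the shCPSF3 libraries and 5182, 3011, 3233 and 2669 in the shUL1 libraries, compared with 1099 and 1228 in shSCR. The differences from shSCR were 2.01 (SE 0.27, limma adjusted p = 0.00322) and 1.55 (SE 0.27, limma adjusted p = 0.0149). Each of the 8 knockdown libraries lay above both shSCR libraries. Its partner Col1a2, at 3950 to 6164 in shCPSF3 and 3880 to 6547 in shUL1, rose by 1.52 and 1.38.

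Type III collagen had some of the largest rises. Col3a1 was at 6235, 6356, 9296 and 5024 in the shCPSF3 libraries and at 13130, 6099, 5675 and 3467 in the shUL1 libraries, compared with 1021 and 1251 in shSCR and 758 and 1309 in NI. All 8 knockdown libraries lay above the NI libraries of this dataset, although NI replicate 2 of the OE dataset was at 4620, within their range, and the knockdowns were not tested against NI. The differences from shSCR were 2.54 (SE 0.41, limma adjusted p = 0.00563) and 2.48 (SE 0.41, limma adjusted p = 0.0128), 5.80-fold and 5.57-fold. In both libraries of shUL1#1 Col3a1 had the highest value of any member. The ratio of Col3a1 to Col1a1 per kilobase ran from 0.651 to 1.35 in shCPSF3 and from 0.868 to 1.69 in shUL1, and that of Col1a1 to Col1a2 from 1.41 to 2.11 and from 1.13 to 1.499. In neither ratio did a knockdown library lie within the range of NI.

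The smaller fibrillar collagens rose too. Col5a3 was at 285, 232, 95.5 and 128 in shCPSF3 and 163, 133, 80.3 and 108 in shUL1, compared with 40.7 and 23.2 in shSCR (2.42, SE 0.24, limma adjusted p = 0.00154, and 1.90, SE 0.24, limma adjusted p = 0.0072). Col5a2 and Col5a1 rose by 1.99 and 1.68 with Cpsf3 knockdown and by 1.59 and 1.22 with Hnrnpul1 knockdown. Col27a1, a fibrillar collagen of cartilage, rose by 1.98 and 1.92, and Col11a1 rose by 1.24 with Cpsf3 knockdown and was at 0.71 with Hnrnpul1 knockdown without passing (limma adjusted p = 0.17). Col2a1 did not pass in either comparison, and 1 library stood apart: shCPSF3#1 replicate 2 was at 213, near the 170 and 180 of NI, while the other 9 day-12 libraries ran from 10.1 to 26.7. Sox9, which drives Col2a1 in cartilage, was also at its highest in that library, at 34.8 compared with 4.88 to 20.01 in the other 9.

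Proteoglycans gave some of the largest rises. Lum was at 833, 932, 965 and 444 in shCPSF3 and 811, 474, 351 and 372 in shUL1, compared with 167 and 54.2 in shSCR and under 6 in NI (2.98, SE 0.47, limma adjusted p = 0.0052, and 2.30, SE 0.47, limma adjusted p = 0.0226). Vcan was at 1341, 799, 1322 and 573 in shCPSF3 and 1024, 444, 978 and 501 in shUL1, compared with 144 and 165 in shSCR and 344 and 513 in NI (2.61, SE 0.48, limma adjusted p = 0.00833, and 2.15, SE 0.48, limma adjusted p = 0.0302). For both genes all 8 knockdown libraries lay above shSCR. Dcn did not pass, with values from 401 to 5018 in shCPSF3 and from 556 to 2889 in shUL1 that followed the replicate number, and Bgn rose by 1.55 with Cpsf3 knockdown (limma adjusted p = 0.0285) and missed with Hnrnpul1 knockdown (1.07, limma adjusted p = 0.134).

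Postn had the second largest rise with Cpsf3 knockdown and the largest with Hnrnpul1 knockdown. It was at 507, 1717, 434 and 825 in shCPSF3 and at 663, 694, 538 and 717 in shUL1, compared with 62.1 and 167 in shSCR (2.86, SE 0.54, limma adjusted p = 0.00908, and 2.66, SE 0.54, limma adjusted p = 0.0226). Sparc rose by 1.28 and 0.90, to between 2329 and 3801 in shCPSF3 and between 1872 and 3236 in shUL1. Thbs1, Thbs2 and Tnc did not pass in either comparison, and their knockdown libraries overlapped shSCR, whose own 2 libraries were at 3272 and 480 for Thbs2 and at 1714 and 203 for Tnc.

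Among the elastic fibre genes, Fbn1, Fbln2 and Fbln5 rose with Cpsf3 knockdown, by 1.503, 1.62 and 1.15, and Fbn2 rose with Hnrnpul1 knockdown by 1.32 (limma adjusted p = 0.039). Fbln5 passed although its libraries overlapped, with 219 in shSCR replicate 1 and 201 in shCPSF3#2 replicate 2. Of the type VI chains, Col6a1 and Col6a2 rose in both comparisons and Col6a3 with Cpsf3 knockdown, from 172 and 231 in shSCR to 400, 1308, 537 and 1057. Col23a1, which had risen in shSCR, was higher again at 18.2, 36.5, 24.9 and 38.9 in shCPSF3 and 40.6, 40.9, 36.5 and 39.7 in shUL1 (1.86, limma adjusted p = 0.00386, and 2.32, limma adjusted p = 0.00562).

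The basement membrane chains gave mixed values. Col4a5 rose with Cpsf3 knockdown (0.90, limma adjusted p = 0.029), and was at 0.65 with Hnrnpul1 knockdown without passing, while Col4a6 was at 0.81 and 1.08, also without passing. With the replicate number as a block these 3 differences passed (limma adjusted p = 0.0404, 0.0327 and 0.0205). For Col4a1, Col4a2 and Col18a1 the differences from shSCR were -0.13, -0.06 and -0.15 with Cpsf3 knockdown and -0.47, -0.22 and -0.30 with Hnrnpul1 knockdown. These 6 differences had overlapping libraries and adjusted p-values between 0.449 and 0.915. Their SEs ran from 0.38 to 0.39. Col7a1 did not pass either, at 0.22 and -0.39.

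Same-numbered day-12 libraries of the KD dataset deviated together, with correlations over genes of 0.67 to 0.95. With the replicate number as a block, 27 members passed with Cpsf3 knockdown (49.8% of all genes). The 4 it added were Dcn, Col12a1, Col4a6 and Col24a1. With Hnrnpul1 knockdown 26 passed (29.3% of all genes), and the 9 it added were Col6a3, Bgn, Fbn1, Fbln2, Fbln5, Col4a5, Col4a6, Col8a2 and Col24a1. In shSCR against NI, where this correlation was -0.04, the block gave 32 members (59.4% of all genes). Those it added were Col24a1, Dcn, Fbln1 and Thbs2, which were higher, and Fbn1, Bgn, Vcan, Tnc, Col4a1, Col6a2 and Col27a1, which were lower. The number of calls depended on single libraries. Without shSCR replicate 1 and shSCR replicate 2, the members' median was 1.69 and 1.16 with Cpsf3 knockdown and 1.33 and 0.82 with Hnrnpul1 knockdown. Without shSCR replicate 1, 20 members passed with Cpsf3 knockdown (18.8% of all genes). Without shSCR replicate 2, 9 members passed (6.26% of all genes), namely Col1a1, Col3a1, Col5a1, Col5a2, Col5a3, Col8a1, Col23a1, Lum and Postn. With Hnrnpul1 knockdown 3 passed without shSCR replicate 2 (1.67% of all genes), of which Col5a3 and Col23a1 were higher and Col7a1, at 89.2 and 20.9 in the shSCR libraries, was lower. Without shSCR replicate 1, 5 members passed with Hnrnpul1 knockdown (2.2% of all genes), and without shUL1#1 replicate 1 or shUL1#2 replicate 1, 7 and 6 (3.24% and 2.61%). A fit to the groups compared alone, with fewer samples to estimate the spread, called 8 members with Cpsf3 knockdown (3.65% of all genes) and 4 with Hnrnpul1 knockdown (1.54%).

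Each shRNA was also compared by itself, with 2 libraries against the same 2 of shSCR. With shCPSF3#1 22 of 39 members rose (56.41%, all genes 20.8%), with shCPSF3#2 12 (30.77%, all genes 4.19%), with shUL1#1 13 (33.33%, all genes 3.84%) and with shUL1#2 8 (20.51%, all genes 4.4%), and none fell (all genes 14.4%, 1.12%, 1.09% and 1.83%).

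Set directly against each other, the knockdowns gave no call among the members (limma, 4 of 9435 genes called, 0.0424%). At an unadjusted p under 0.05, 3 members were higher with Cpsf3 knockdown, namely Col5a3 by 0.52, Col6a1 by 0.47 and Col5a1 by 0.45 on the log2 scale, and none was lower. That is 7.69% of the members, compared with 8.65% of all genes. The median over the members was 0.34 compared with 0.01 over all genes, and 35 of 39 were above 0. The SEs of 0.16 to 1.03 limit what this comparison can show.

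Forced expression of Tia1 was compared with Empty at day 12. No member passed (0 of 36), and neither did any of 9472 genes (0%, limma, 393 at an unadjusted p under 0.05). The members' values still lay mostly below those of Empty, with 32 of 36 differences negative and a median of -0.42 on the log2 scale compared with -0.0021 over all genes. At an unadjusted p under 0.05, 6 members were lower (16.7%, all genes 1.78%) and none was higher (all genes 2.36%).

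Those 6 members were Col4a1, Col4a2, Col6a3, Col24a1, Dcn and Postn, all with a limma adjusted p of 0.999. Col4a1 was at 645 and 703 in T7-TIA1 compared with 1000.1 and 1000.3 in Empty (-0.57, SE 0.12), and Col4a2 at 439 and 488 compared with 657 and 649. Col6a3 was at 233 and 324 compared with 618 and 568, and Postn at 33.9 and 53.4 compared with 114 and 157 (-1.63, SE 0.63). In each of these the 2 T7-TIA1 libraries lay below the 2 Empty libraries. Type I collagen, with Col1a1 at 776 and 759 compared with 955 and 1064, gave a difference of -0.39 with an SE of 0.48.

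**Figure D3:**
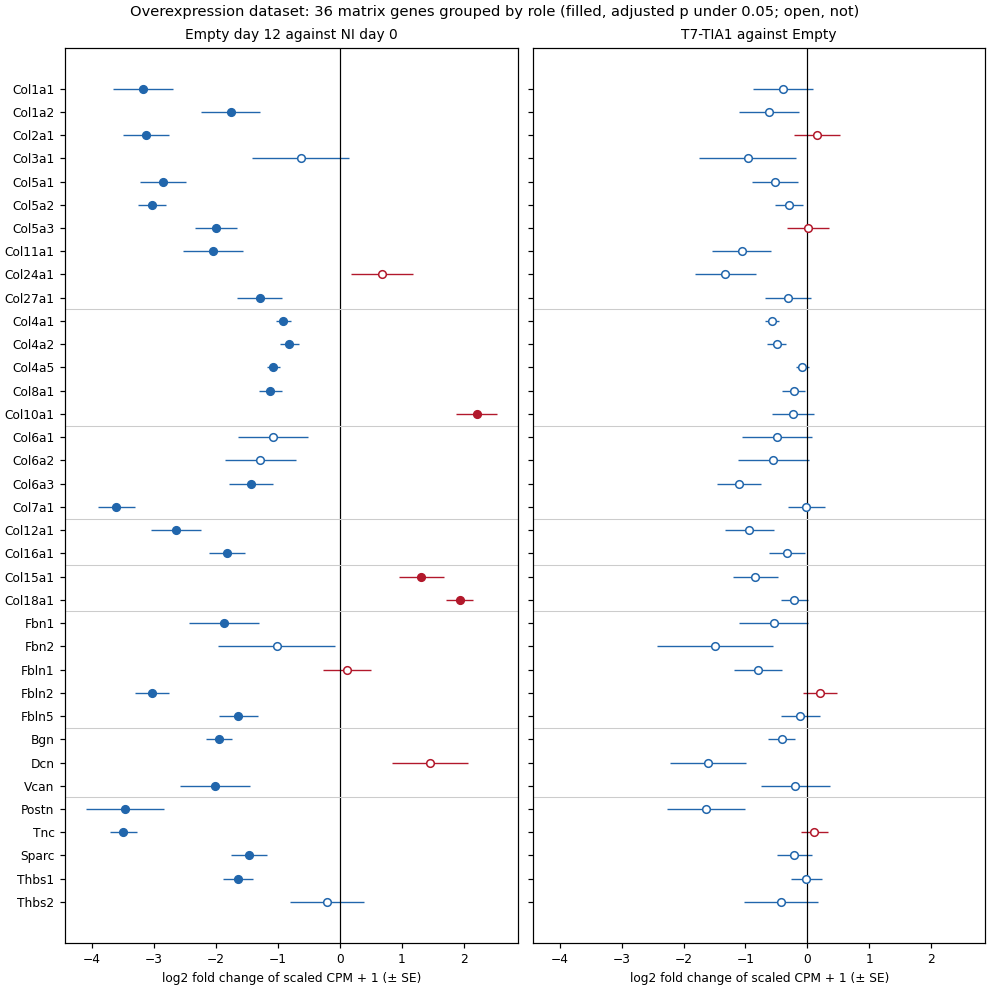
Log2 fold change (± SE) of each of the 36 listed matrix genes in the OE dataset, grouped by role; filled points passed the test. Empty against NI shows 25 filled points on the left and 3 on the right, and T7-TIA1 against Empty shows none filled, with 32 of 36 below 0.

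Genes that make, cut or bind collagen were described from lists of 32, 24 and 9 genes, of which 29, 19 and 7 were in the KD table. Of the biosynthesis genes, 16 of 29 fell in shSCR (55.17%, all genes 22%) and 21 of 29 in Empty (72.41%, all genes 23.6%), and none rose. The largest falls were those of Lox, the enzyme that cross-links collagen (-2.51 in shSCR and -4.14 in Empty on the log2 scale), and Serpinh1, the collagen chaperone of the endoplasmic reticulum (-2.197 and -2.43). With Cpsf3 knockdown 15 of 29 rose (51.72%, all genes 16.7%), led by Fkbp14 (1.80) and P3h3 (1.55), and with Hnrnpul1 knockdown 6 of 29 rose (20.69%, all genes 7.31%), led by P4ha3 (1.60) and Fkbp14 (1.46).

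Of the matrix proteases and their inhibitors, 4 of 19 rose in shSCR (21.05%, all genes 22.5%), among them the collagenase Mmp13 (5.93) and stromelysin Mmp3 (5.17), and 5 fell (26.32%, all genes 22%), among them the membrane protease Mmp16 (-2.13). In Empty 7 of 17 fell (41.18%, all genes 23.6%), among them the metalloprotease inhibitor Timp1 (-1.84), and Adamts9 alone rose (0.67). Mmp16 and the metalloprotease inhibitor Timp2 led the 8 rises with Cpsf3 knockdown (2.77 and 2.11; 42.11%, all genes 16.7%) and the 6 rises with Hnrnpul1 knockdown (2.27 and 1.39; 31.58%, all genes 7.31%). Of 7 receptors for collagen and other matrix, 3 fell in shSCR (42.86%), led by Itgb1 (-1.93) and Cd44 (-1.90), and 2 fell in Empty (28.57%), beside 22% and 23.6% of all genes. Ddr2, a collagen-binding receptor kinase, rose in both knockdowns (1.54 and 1.16). With T7-TIA1 none of these genes passed.

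Splicing of the member genes was measured as percent spliced in (PSI), the percentage of a gene's transcripts in which the exon, intron or splice-site choice in question is kept. Of the 4131 covered member events, 1524 were introns, 1514 exons, 634 alternative 3′ and 448 alternative 5′ splice sites and 11 microexons. An event was counted as different when mean PSI differed by at least 10 with a gap of at least 5 between the nearest libraries. By this rule, which involves no test, 16 of 3589 member events differed between shSCR and NI (0.446%, all events 1.22%), 17 of 3636 between Empty and NI (0.468%, all events 0.679%), 3 of 3715 with Cpsf3 knockdown (0.0808%, all events 0.428%), 2 of 3736 with Hnrnpul1 knockdown (0.0535%, all events 0.369%) and 8 of 3508 with T7-TIA1 (0.228%, all events 0.342%). Member shares were below those of all events in all 5 comparisons.

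Inclusion and exclusion reads were also tested with limma on their log2 ratio. On reads, 76 of 1443 member events passed between shSCR and NI (5.27%, all events 6.05%), 60 with Cpsf3 knockdown (4.16%, all events 3.26%) and 17 with Hnrnpul1 knockdown (1.18%, all events 1.68%). In the OE dataset 14 of 868 passed between Empty and NI (1.61%, all events 1.22%) and 1 with T7-TIA1 (0.115%, all events 0.0725%). Most of the calls with the largest ratios sat near a PSI of 0 or 100. Among the 10 largest ratios in each comparison were splice sites of Lum and exons of Dcn in shSCR, a splice-site pair of Col1a2 and exons of Fbn1 in the Cpsf3 knockdown, and exons of Col3a1 and Col12a1 in the Hnrnpul1 knockdown, none of which moved by as much as 1 PSI point. There the 1 read added to each count makes the ratio depend on coverage, and the part of coverage in these calls was not tested. Where the rarer form held at least 5% of reads, a setting added after the data had been seen, 9 of 74 member events passed between shSCR and NI (12.2%, all events 16.1%), 3 of 74 with Cpsf3 knockdown (4.05%, all events 9.12%), 3 of 74 with Hnrnpul1 knockdown (4.05%, all events 5.85%), 9 of 67 between Empty and NI (13.4%, all events 3.55%) and 0 of 67 with T7-TIA1 (0%, all events 0.0511%).

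Fbln2 had the largest shift of any member exon between shSCR and NI. Its 141-nt exon, shown above, codes for an EGF-like module. Inclusion was 6.12 and 7.91 in NI, 43.7 and 52.4 in shSCR, 46.7 to 60.03 in shCPSF3 and 49.0 to 64.7 in shUL1. The log2 ratio of inclusion to exclusion reads rose by 3.62 between NI and shSCR (SE 0.25, limma adjusted p = 4.34e-07), on 1993 reads or more in each library. In the OE dataset inclusion was 9.68 and 25.4 in NI, 44.1 and 51.7 in Empty and 35.1 and 42.5 in T7-TIA1. There the difference between Empty and NI was 2.25 (SE 0.49, limma adjusted p = 0.086, and 0.0297 with the minimum of 5%). All 14 day-12 libraries lay above all 4 NI libraries.

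Tnc moved the other way, towards skipping. Its alternative exons each code for fibronectin type III repeats or parts of them, lie next to each other and share reads, so they are not independent. The 273-nt exon shown above was included at 96.8 and 93.7 in NI and 65.0 and 64.8 in Empty (-3.50, SE 0.27, limma adjusted p = 3.07e-06), and at 75.4 and 78.0 in T7-TIA1. In the KD dataset it was at 88.0 and 92.4 in NI and 56.1 and 55.2 in shSCR, which met the PSI rule but not the test (limma adjusted p = 0.106). The knockdown libraries ran from 53.3 to 90.7 and overlapped both. The other 3 exons of this stretch (270, 273 and 149 nt) fell by 2.90, 2.83 and 2.77 between NI and Empty, and all 4 met the PSI rule with higher inclusion in T7-TIA1 than in Empty, by 11.8 to 15.9, without passing the test.

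Postn, which fell in level, gained its 81-nt exon, part of the variable C-terminal region. Inclusion was 9.96 and 9.95 in NI, 49.8 and 41.3 in Empty and 20.7 and 36.7 in T7-TIA1 (Empty against NI 2.91, SE 0.27, limma adjusted p = 2.99e-05). In the KD dataset it was 14.7 and 17.4 in NI, 26.8 and 57.7 in shSCR and 21.1 to 59.1 in the knockdowns, and the first of these differences did not pass (limma adjusted p = 0.0818). Every day-12 library lay above every NI library. The 78-nt exon further downstream gave the only call with T7-TIA1, from 97.4 and 96.9 in Empty to 91.7 and 91.1 (-1.67, SE 0.28, limma adjusted p = 0.0266). That difference was below the PSI rule, the rarer form held under 5% of the reads of the OE libraries together, and it did not pass with only Empty and T7-TIA1 in the fit, nor without any 1 of their libraries.

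**Figure D4:**
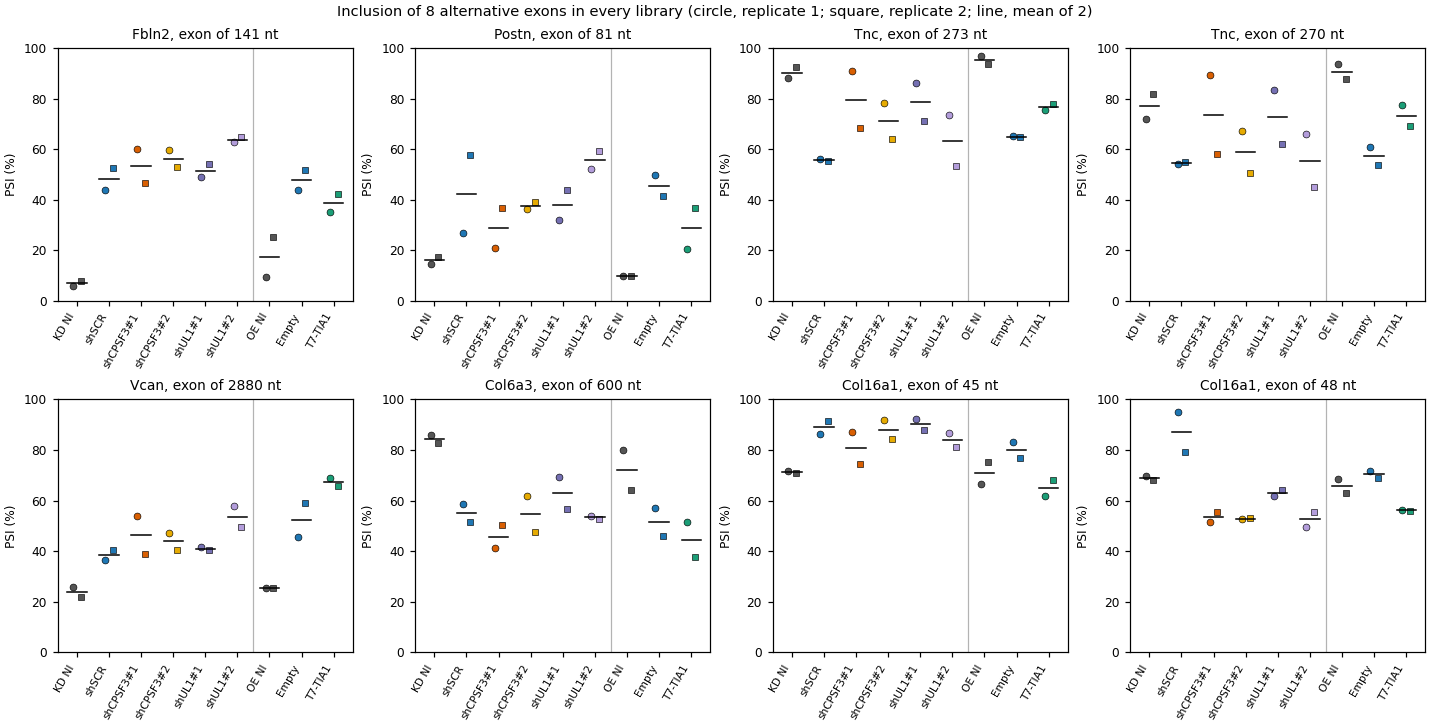
PSI of 8 alternative exons of matrix genes in every library (percent, circle for replicate 1, square for replicate 2, line for the mean of 2). NI lies below all day-12 libraries for Fbln2, Postn and Vcan, and the 48-nt exon of Col16a1 is highest in shSCR at 95.1 and 79.1.

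Vcan included its 2880-nt exon, which codes for a region that carries glycosaminoglycan chains, more often at day 12. PSI was 25.8 and 21.9 in NI and 36.6 and 40.7 in shSCR (1.02, SE 0.28, limma adjusted p = 0.0429), and 25.3 and 25.7 in NI and 45.6 and 59.0 in Empty (1.71, SE 0.26, limma adjusted p = 0.0019). The difference in shSCR passed only with all 4 libraries in the fit. T7-TIA1 was higher still at 69.1 and 65.8, which met the PSI rule but not the test (limma adjusted p = 0.519). Col6a3 skipped its 600-nt exon, 1 of several that code for the N-terminal von Willebrand factor A modules, more often in shSCR: PSI was 86.1 and 82.8 in NI and 58.6 and 51.7 in shSCR (-2.15, SE 0.30, limma adjusted p = 0.000511). The OE libraries were at 80.1 and 64.2 in NI and 57.1 and 45.9 in Empty, without passing (limma adjusted p = 0.149). Its 603-nt exon also fell in shSCR and its 618-nt exon rose, from 4.92 and 5.94 to 10.3 and 12.8. Neither passed in Empty, where the log2 ratios differed from NI by 0.17 and 0.31 (limma adjusted p = 0.863 and 0.591). The call for the 603-nt exon was lost without any 1 of its 4 libraries.

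Col12a1 included its 117-nt exon less often in Empty, where its level was also lower and the rarer form held under 5% of the reads of the OE libraries together. Inclusion was 99.3 and 98.1 in NI and 89.8 and 86.9 in Empty (-3.17, SE 0.35, limma adjusted p = 0.000113). In the KD dataset its inclusion was 98.93 and 98.95 in NI, 97.1 and 80.8 in shSCR and 70.8 to 89.6 in the knockdowns, and shSCR did not differ from NI past the threshold (limma adjusted p = 0.139). Retained introns that passed between shSCR and NI with at least 5% of the rarer form were found in Col7a1 (611 nt, 13.9 and 11.4 to 22.9 and 32.5) and Fbn1 (1.36 and 2.34 to 9.46 and 8.26). The microexon of 9 nt in Col4a5 was at 76.3 and 84.8 in NI, 70.6 and 70.1 in Empty and 82.2 and 81.1 in T7-TIA1, and neither difference passed the test (limma adjusted p = 0.161 and 0.53).

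Col16a1 was the member with events that met the PSI rule in both knockdowns. Other members also had events that passed on reads with both, among them Col12a1, Col3a1 and Col1a1, whose events were near a PSI of 0 or 100. The 48-nt exon that breaks the glycine repeat was included at 69.6 and 68.0 in NI, 95.1 and 79.1 in shSCR, 51.6, 55.6, 52.7 and 53.0 in shCPSF3 and 61.9, 64.3, 49.7 and 55.6 in shUL1. The log2 ratio rose by 1.87 between NI and shSCR (SE 0.44, limma adjusted p = 0.0228). It was lower than in shSCR by 2.82 with Cpsf3 knockdown (SE 0.40, limma adjusted p = 0.00174) and by 2.54 with Hnrnpul1 knockdown (SE 0.40, limma adjusted p = 0.00551). All 8 knockdown libraries lay below both shSCR libraries, and below both NI libraries of the KD dataset. The NI libraries of the OE dataset were at 68.5 and 63.0, the latter within the range of the knockdowns. Empty did not differ from them past the threshold (0.30, SE 0.25, limma adjusted p = 0.631). T7-TIA1, at 56.3 and 55.9 against 71.7 and 69.0 in Empty, met the PSI rule without passing the test (limma adjusted p = 0.505). Without shSCR replicate 1, the higher of the control libraries, the rise between NI and shSCR was 0.75 and did not pass, and it did not pass without either NI library. The falls were 1.70 and 1.43 without shSCR replicate 1 and still passed, and the fall with Hnrnpul1 knockdown did not pass when only the groups compared were in the fit. The lowest coverage of this exon was 166 reads.

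The 45-nt exon of Col16a1 that keeps the repeat did not separate the knockdowns from shSCR. It was at 71.6 and 70.8 in NI, 86.5 and 91.6 in shSCR, 74.4 to 91.7 in shCPSF3 and 81.0 to 92.4 in shUL1, which overlap shSCR (log2 ratio differences -0.42 and -0.12, limma adjusted p = 0.664 and 0.932). With T7-TIA1 it was at 61.8 and 68.3 compared with 83.3 and 76.7 in Empty, which met the PSI rule without passing the test (-1.09, limma adjusted p = 0.408), as for the 48-nt exon. An intron of Col16a1 of 2501 nt that contains this exon was retained at 16.5 and 12.9 in NI, 29.5 and 25.9 in shSCR and 10.5 to 19.4 in the knockdowns. In the OE dataset retention went the other way, at 19.1 and 21.1 in NI and 13.9 and 10.02 in Empty. That difference did not pass the test (-0.76, limma adjusted p = 0.444). The intron passed in shSCR (1.19, limma adjusted p = 0.031), with Cpsf3 knockdown (-1.33, limma adjusted p = 0.0119) and with Hnrnpul1 knockdown (-1.42, limma adjusted p = 0.0137). It did not pass with either knockdown without shSCR replicate 1, where the differences were -1.18 and -1.27, and it passed between shSCR and NI only with all 4 libraries in the fit.

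Introns as a class showed small shifts. By the sign of the read ratio, 42 of 635 member introns rose between NI and shSCR (6.61%, all introns 5.04%) and 4 fell (0.63%, all introns 1.05%). With Cpsf3 knockdown none rose (all introns 0.486%) and 38 fell (5.98%, all introns 2.17%), and with Hnrnpul1 knockdown none rose (all introns 0.256%) and 8 fell (1.26%, all introns 0.723%). All introns thus had the same leading direction as the member introns in each of these comparisons. The 46 member introns that passed between shSCR and NI lay in 19 genes, and 35 of the 46 were below a PSI of 5 in every library compared. Their median PSI was 0.88 in shSCR and 0.167 in NI. With Cpsf3 knockdown the 38 introns lay in 17 genes, with a median PSI of 0.24 compared with 0.782 in shSCR, and 32 of them were below 5 throughout. In Empty none of 414 member introns passed without the minimum of 5% (all introns 0.483% higher and 0.302% lower), nor with T7-TIA1 (all introns 0.00189% higher and 0.0207% lower). Of these introns, 37 of 46 lay in genes that fell in shSCR, 28 of 38 in genes that rose with Cpsf3 knockdown and 6 of 8 in genes that rose with Hnrnpul1 knockdown, so coverage moved with the result for most of them. The part of coverage was not tested, and the same counts over all 635 member introns tested are not given here.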

How the data were processed

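Per the labels, polyA RNA from 18 samples was made into stranded libraries, with reads mapped to mm10. The authors' gene tables hold a signal, CPM of a library size scaled for each library (STAR 2.7.1a, edgeR 3.16.5), filtered for level and variation before deposit. The authors' splicing table holds PSI in percent from vast-tools, with reads per event. Values of each library were whole multiples of 1 step (100% of values below 2000 steps lay within 0.05 of a whole step). If a step is 1 read, listed genes hold 98882289 to 109047542 reads a library. The deposited values are not counts, so limma 3.58.1 (R 4.3.3) was run on log2(signal + 1) with a trend, all groups of a dataset in 1 fit, two-sided. Fold changes are on that scale and understate low genes. PSI differences needed VLOW coverage or better in all libraries compared. Reads were tested on log2((inclusion + 1)/(exclusion + 1)), with weights from counting variance plus 0.05 and at least 10 reads of each form summed. Members, role lists and tests were chosen with earlier results of these data known. The rule was to print library values for the 3 most abundant members of each role and the 3 largest changes each way; some abundant members are given for part of the groups, as ranges or by their differences alone. Events are the 5 largest by PSI and those called on reads; the 10 largest of these by ratio are described as a set. Other members and events named were added after their values were seen. Levels per kilobase use annotated exons (GENCODE M21). A further collagen gene, an alternative exon with its neighbouring intron and a gene of the context lists are not reported here. Steps were tested on simulated data.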

Additional observations from a re-analysis of the deposited data

How the results depend on the processing

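Over the 89 member calls, alternatives gave 771 values that still passed and 199 that kept their direction but no longer passed, and none changed sign. The pseudocount (0.1 or 5) and a minimum mean of 10 moved no count of members called. Leaving out 1 library at a time, with the lone sample of a group assumed to vary like the others, the members called ranged from 10 to 16 (shSCR against NI), 9 to 24 (Cpsf3 knockdown), 3 to 15 (Hnrnpul1 knockdown), 13 to 33 (Empty against NI) and 0 in both other comparisons. Events by the PSI rule ranged from 16 to 25, 3 to 16, 2 to 13, 17 to 24 and 15 to 18 (T7-TIA1), and events called on reads from 13 to 39, 16 to 49, 7 to 16, 10 to 26 and 0 to 0. With only the groups compared, 8 members passed with Cpsf3 knockdown and 4 with Hnrnpul1 knockdown.

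The labels give replicate numbers 1 and 2 with no shared batch, so the fit with the replicate number as a block is an alternative. It called 32 members in shSCR against NI (59.4% of all genes), 27 with Cpsf3 knockdown (49.8%) and 26 with Hnrnpul1 knockdown (29.3%), and on reads 118 (Cpsf3), 28 (Hnrnpul1) and 27 (Empty) of the member events (4.47%, 2.42% and 3.18% of all events). Deviations of same-numbered samples correlated over genes at 0.67 to 0.95 among day-12 KD groups, -0.13 to 0.02 between these and NI, and 0.17 to 0.31 in the OE dataset.

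For events, with no minimum gap the PSI rule counted 10 (Cpsf3), 6 (Hnrnpul1) and 13 (T7-TIA1). With a minimum difference of 15 it counted 1 (Hnrnpul1), 9 (Empty) and 4 (T7-TIA1), and with LOW coverage or better 11 (Empty). On reads, the minimum of 5% for the rarer form, added after seeing the data, gave 9, 3, 3, 9 and 0. In Empty, 7 of these 9 had also passed without that minimum. A minimum of 50 reads gave 39 (Cpsf3) and 0 (T7-TIA1), and T7-TIA1 with only the groups compared gave 0. The cause of these shifts was not tested, apart from fewer events or samples in a setting. The count-based alternatives (edgeR and DESeq2) were not run, because the deposited values are not counts. Beside depth, 2 libraries a group limit every comparison.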
